A study of Saccharomyces cerevisiae with 6 samples.

Results

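The genes described here encode the proteins of the mitochondrial ribosome of Saccharomyces cerevisiae. They were chosen by name: a gene belonged to the group if its symbol in the platform's probe annotation was MRPL, MRPS, MRP, RSM or YML followed by a number, or IMG1 or IMG2. This took 69 of 6912 features and 68 of 5365 named genes, since MRPL1 had 2 features, whose values were identical in all 6 scans. All 68 had a value in all 3 hybridisations and were among the 5349 genes tested. The name rule counts MRPL, IMG and YML genes as large subunit (35 genes, with 0 features matched by the YML pattern) and MRPS and RSM genes as small subunit (20 genes). It leaves 13 genes named MRP with a number without a subunit.

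Mitochondrial ribosomes translate the few messenger RNAs transcribed from mitochondrial DNA, which in yeast encode mainly core subunits of the respiratory chain and of the ATP synthase. Nearly all of their proteins are encoded in the nucleus, made in the cytosol and imported, while the ribosomal RNAs and 1 small-subunit protein, Var1, come from mitochondrial DNA. Many have counterparts in bacterial ribosomes and others are found in mitochondria alone. In the common nomenclature a name starting with u or b marks a protein shared with bacteria, and m marks one specific to mitochondria. In yeast growing on glucose by fermentation these genes are expressed, and the messages of many of them are bound by the RNA-binding protein Puf3.

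Cells of strain S288C, from which the yeast reference genome was read, grew at 25 °C in YPD, a rich medium with glucose, and tetrachloroethylene, a chlorinated solvent, was added to the exponential culture at a final 3.3 mM. Cy5 marked cDNA of cells exposed for 2 h and Cy3 that of cells taken before the addition, on 3 arrays from independent biological samples, each scanned with a high and with a low laser setting. The values are the authors' normalised log ratios, read as log2 of treated over untreated cells, a base and direction taken from the dye labels and convention, since the labels state neither. No dyes were exchanged and untreated cells were taken only at the start, so the solvent, the hours of growth and any dye bias cannot be told apart. A ratio gives no level of a transcript, and an amount of messenger RNA per cell was not measured.

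Between 3690 and 6145 of the features had a value in a scan. The members had one in both scans for 59, 68 and 67 of 68 genes in hybridisations 1, 2 and 3. Hybridisation 1 stood apart: over all tested genes its ratios had a correlation of 0.56 with those of hybridisation 2 and 0.56 with those of hybridisation 3, against 0.84 between hybridisations 2 and 3 (Pearson, 5349 genes that share the arrays, as a description). Hybridisation 2 had the widest gap between its scans, with a median absolute difference of 0.40 over the members, against 0.15 in hybridisation 1 and 0.16 in hybridisation 3. Of 12 genes of meiosis and sporulation, listed as markers of another state of yeast cells, 0 rose and 1 (SPS4, 8.33%) fell by limma. Of all tested genes 9.14% rose and 11.9% fell. Among the 12 genes, 9 had a mean ratio above 0, with a list median of 0.45, 0.01 and 0.29 in hybridisations 1, 2 and 3. Whether any cells entered that state was not tested. In hybridisation 1, SPO11 stood at 3.86, SPR3 at 3.50 and SPS1 at 2.51, against 0.57, 0.43 and -0.60 in hybridisation 2 and 0.66, 0.97 and -0.82 in hybridisation 3. These were the highest of the 7 genes above 0 in hybridisation 1. Below 0 there were IME1 (-0.19), IME2 (-0.03), NDT80 (-0.06), DMC1 (-0.05) and SPS4 (-0.84). What part such genes have in the members' ratios was not tested.

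Most genes of the mitochondrial ribosome had a higher ratio after exposure, by small amounts. Of the 68 genes, 57 had a mean log2 ratio above 0 and 11 at or below it, and the means ran from -0.27 for MRPL22 to 1.86 for MRP10. The median over the 68 genes was 0.18, 0.46 and 0.59 in hybridisations 1, 2 and 3, or 0.41 ± 0.21 (SD, n = 3). Over all tested genes the corresponding medians were -0.08, -0.02 and -0.01. In all 3 hybridisations 42 of the 68 genes (61.8%) lay above 0, where 27.5% of all tested genes did, and 1 gene, MRP7, lay below 0 in all 3, where 31.3% of all tested genes did.

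Of these genes, 13 passed a limma test of the mean ratio against 0 with Benjamini-Hochberg adjustment over 5349 genes at 0.05, and all 13 were higher. That is 19.1% of the group, beside 9.14% of all tested genes called higher. None was called lower, beside 11.9% of all tested genes, and at an unadjusted p under 0.05, 28 were higher (41.2%, beside 17.7% of all tested genes) and 0 lower (beside 20.9%). Counted in either direction, the 28 were near the 38.6% of all tested genes at that p. Ranked among all tested genes by mean ratio, 37 of the 68 stood above percentile 75 and 0 at or below percentile 25, and the median member stood at percentile 77.5.

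**Figure D1:**
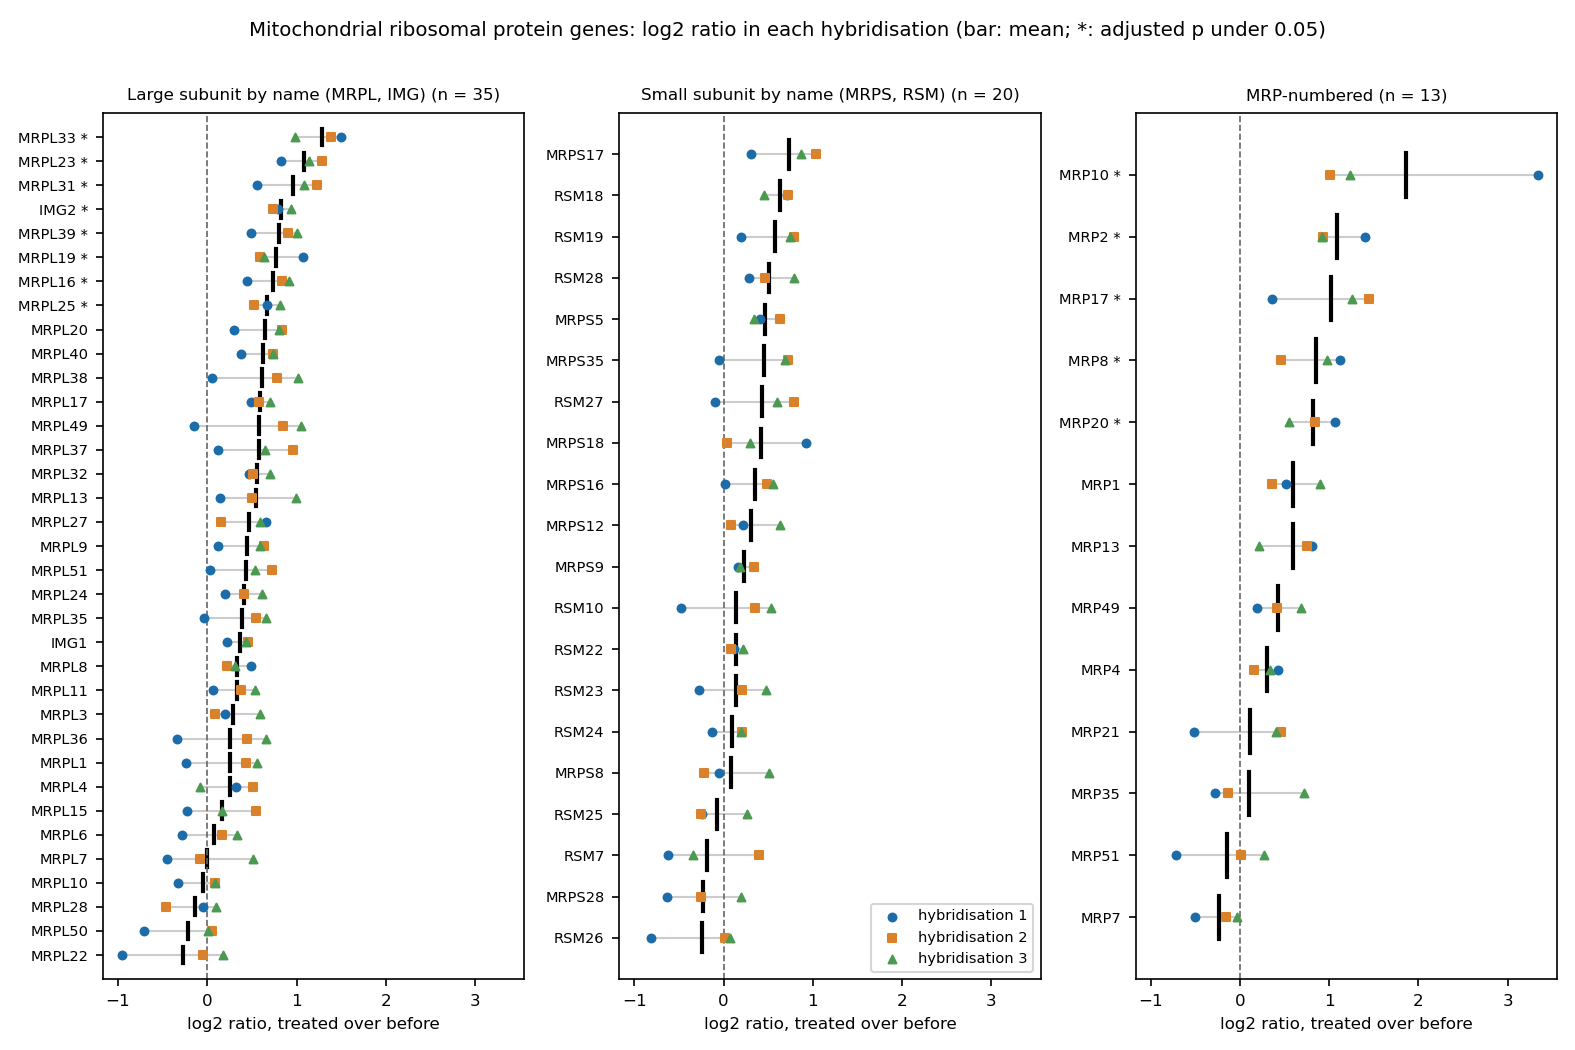
Log2 ratio of treated over untreated cells (x axis) for each of the 68 genes (y axis), in 3 panels for large-subunit, small-subunit and MRP-numbered genes. Points are the 3 hybridisations, black bars their means and stars mark an adjusted p under 0.05; MRP10 at 3.34 in hybridisation 1 is the most distant single point, and the circles of hybridisation 1 are the lowest of a gene in 45 of 68 cases.

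In the large subunit, 8 of 35 genes named MRPL or IMG rose (22.9%), 0 fell and 27 did not pass. Of all tested genes 9.14% rose and 11.9% fell. MRPL33, whose product is uL30, had log2 ratios of 1.50, 1.38 and 0.99 in hybridisations 1, 2 and 3, a mean of 1.29 ± 0.27 or 2.44-fold (SD, n = 3; adjusted p = 0.0112 by limma). Its 3 values lay well above 0, and it had the lowest adjusted p of the group. Its scans of hybridisation 2 differed, at 1.03 and 1.74. MRPL23, which encodes uL13, had 0.83, 1.29 and 1.14, a mean of 1.09 ± 0.23 (2.12-fold, adjusted p = 0.0141 by limma).

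MRPL31 encodes mL60, a protein without a bacterial counterpart. Its ratios were 0.56, 1.23 and 1.09, with a mean of 0.96 ± 0.35 (adjusted p = 0.0227 by limma). IMG2, named for its role in keeping the mitochondrial genome intact and encoding mL49, had 0.79, 0.74 and 0.94, a mean of 0.82 ± 0.11 (adjusted p = 0.0230 by limma). IMG2 varied least among the 13 called genes, while MRPL31 was lower in hybridisation 1 than in the others. IMG1, which encodes bL19, had 0.22, 0.45 and 0.43 and did not pass (adjusted p = 0.179 by limma).

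The other 4 large-subunit genes called by name were MRPL39 (bL33), MRPL19 (uL11), MRPL16 (uL16) and MRPL25 (mL59). MRPL39 had ratios of 0.49, 0.90 and 1.01, and its scans differed by up to 0.96, the widest gap between scans of 1 hybridisation in the group. MRPL19, whose product lies in the stalk base where translation factors act, had 1.07, 0.59 and 0.63, and was highest in hybridisation 1. There it had a value at the high laser setting alone, and at that setting it read 1.07, 0.94 and 0.71. MRPL16 had 0.45, 0.83 and 0.92, and MRPL25 had 0.67, 0.52 and 0.82, so that all 3 values of these 4 genes lay above 0. Their mean ratios ran from 0.67 to 0.80 and their adjusted p from 0.0328 to 0.0434 by limma.

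Among large-subunit genes that did not pass, MRPL20, MRPL40, MRPL17 and MRPL32 lay above 0 in every hybridisation, with means of 0.64, 0.62, 0.59 and 0.56 and adjusted p of 0.0610, 0.0573, 0.0575 and 0.0670 by limma. MRPL49, the source of bL21, had -0.15, 0.85 and 1.05, and MRPL38, of uL14, had 0.06, 0.78 and 1.02. Both were near 0 in hybridisation 1 and well above it in the other two. MRPL36, of bL31, had -0.34, 0.45 and 0.65, and MRPL3, of mL44, a protein related to RNase III, had 0.20, 0.09 and 0.59. The lowest large-subunit genes were MRPL22 (uL22), with -0.96, -0.05 and 0.18, MRPL50 (bL9), with -0.71, 0.05 and 0.01, and MRPL28 (mL40), with -0.05, -0.46 and 0.10. None of these 3 kept 1 sign over the hybridisations, and the low means of MRPL22 and MRPL50 came from hybridisation 1. MRPL10 (uL15) and MRPL7 (uL5) had means of -0.05 and -0.01.

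In the small subunit, 0 of 20 genes named MRPS or RSM passed by limma, beside 9.14% of all tested genes called higher and 11.9% called lower. At an unadjusted p under 0.05, 5 (25.0%) were higher and 0 lower, beside 17.7% and 20.9% of all tested genes. The count of 0 by limma did not hold in every alternative described below. Without hybridisation 1, 9 were higher (beside 20.8% of all tested genes), and with hybridisation as a random block 4 (beside 15.0%). With each array centred on its median it was 2 (beside 10.2%). It stayed 0 without hybridisation 2, without hybridisation 3 and with a minimum fold of 1.2. MRPS17, the source of uS17, came closest, with 0.31, 1.03 and 0.86, a mean of 0.74 ± 0.38 and an adjusted p of 0.0505 by limma. RSM18, of bS18, had 0.72, 0.72 and 0.45, a mean of 0.63 ± 0.15 and an adjusted p of 0.0511 by limma. These 2 genes stood just outside the threshold, and the effect of MRPS17 was larger than that of MRPL25, which passed.

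MRPS12, encoding uS12, a protein of the decoding centre, had 0.22, 0.08 and 0.63. RSM19, its neighbour on the chromosome and the source of uS19, had 0.20, 0.79 and 0.74, and they were the only 2 members that adjoined each other in the R64 gene order. RSM23 (mS29), related to the animal apoptosis protein DAP3, had -0.27, 0.20 and 0.47, and RSM22, a protein with a methyltransferase-like fold, had 0.11, 0.08 and 0.22. The 4 genes showed no common course over the hybridisations, and none passed. The lowest small-subunit genes were RSM26 (mS42) with -0.81, 0.01 and 0.07, MRPS28 (uS15) with -0.64, -0.25 and 0.20, RSM7 (uS7) with -0.63, 0.39 and -0.34, and RSM25 (mS23) with -0.24, -0.25 and 0.26. Each of these 4 had values on both sides of 0.

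Of the 13 genes named MRP with a number, 5 rose (38.5%, beside 9.14% of all tested genes), 0 fell (beside 11.9%) and 8 did not pass. MRP10, the source of mS37, a small protein with paired cysteine motifs, had the highest mean of the group. Its log2 ratios were 3.34, 1.01 and 1.23, with a mean of 1.86 ± 1.28, or 3.63-fold (SD, n = 3; adjusted p = 0.0295 by limma). The value of hybridisation 1 was read alike by both scans, at 3.32 and 3.36, and without that hybridisation the mean was 1.12, below those of MRP17 (1.35), MRPL23 (1.21), MRPL33 (1.18) and MRPL31 (1.16). All 3 values lay above 0, so the direction did not rest on hybridisation 1, while the rank did.

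MRP2, encoding the small-subunit protein uS14, had 1.40, 0.94 and 0.92, a mean of 1.09 ± 0.27 (adjusted p = 0.0153 by limma). MRP17, encoding bS6 of the same subunit, had 0.36, 1.45 and 1.25, a mean of 1.02 ± 0.58 (adjusted p = 0.0336 by limma). MRP20 encodes uL23, which sits at the exit of the peptide tunnel of the large subunit, and had 1.07, 0.84 and 0.55, a mean of 0.82 ± 0.26 (adjusted p = 0.0297 by limma). MRP20 and MRP2 were highest in hybridisation 1 and MRP17 lowest there. MRP8 also rose, with 1.12, 0.45 and 0.98 and a mean of 0.85 ± 0.35 (adjusted p = 0.0322 by limma), but its product, though named as a mitochondrial ribosomal protein from sequence, is not counted among the proteins of the ribosome.

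MRP7 and MRP49, of the large subunit, did not pass. MRP7, of bL27, had -0.50, -0.15 and -0.03, and MRP49, of mL61, had 0.19, 0.41 and 0.68. MRP7 was the member below 0 on every array, yet its adjusted p was 0.414 by limma. MRP51, the source of bS1, had -0.72, 0.01 and 0.27, with a mean of -0.15.

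By name, the large subunit stood above the small one in each hybridisation. The median log2 ratio of the 35 large-subunit genes was 0.20, 0.52 and 0.63 in hybridisations 1, 2 and 3, against -0.02, 0.35 and 0.46 for the 20 small-subunit genes. The difference of the medians was 0.21, 0.17 and 0.17, a mean of 0.19 ± 0.02 (SD, n = 3). The genes of a subunit are not replicates, so no p is given for this difference. It depended on which genes were counted: with the 12 MRP-numbered genes of known subunit added, large-subunit genes (39) had medians of 0.19, 0.51 and 0.63 and small-subunit genes (28) of 0.14, 0.38 and 0.46, a difference of 0.12 ± 0.06. In that division 9 of 39 large-subunit (23.1%) and 3 of 28 small-subunit genes (10.7%) rose, beside 9.14% of all tested genes. The small-subunit share was thus near the background. The count of 0 among genes named MRPS or RSM did not extend to MRP2, MRP10 and MRP17.

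The difference between the subunits also moved with the place of features in the numbering of the array. All features were divided in order of their ID into 24 equal blocks, whose median ratios ran from -0.51 to 0.36 in hybridisation 1. The blocks that held large-subunit genes had median ratios of 0.05, 0.06 and 0.07 in hybridisations 1, 2 and 3 (median over the genes), and those that held small-subunit genes of -0.20, -0.03 and -0.07. With every block centred on 0, the difference of the subunit medians was 0.067 ± 0.009, with 0.46 for the large and 0.40 for the small subunit. The medians of both subunits thus stayed above 0 and their difference shrank to less than the 0.19 seen without centring.

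The genes were also divided by whether their proteins are specific to mitochondria or have a bacterial counterpart. The median of the 24 mitochondrion-specific genes was 0.45 ± 0.25, and 4 (16.7%) rose. That of the 42 genes with a bacterial counterpart was 0.39 ± 0.19, and 8 (19.0%) rose (SD over 3 hybridisations). Of all tested genes 9.14% rose. Within the large subunit the median was 0.47 ± 0.25 over 14 mitochondrion-specific genes and 0.39 ± 0.24 over 25 with a bacterial counterpart. Within the small subunit it was 0.29 ± 0.32 over 10 and 0.35 ± 0.14 over 17. That order depended on the summary: the median of the genes' mean ratios was 0.44 over the 10 and 0.31 over the 17. Each SD is that of a median over the arrays that both classes share, so it does not measure the spread of their difference. In the large subunit the mitochondrion-specific genes were higher in each hybridisation, with 0.19, 0.55 and 0.67 against 0.12, 0.45 and 0.59. Over both subunits they were lower in hybridisation 1 (0.17 against 0.18) and higher in hybridisations 2 (0.53 against 0.45) and 3 (0.65 against 0.54). No difference between the classes was tested. In the small subunit the mitochondrion-specific genes were lower in hybridisation 1 alone (-0.07 against 0.20) and higher in hybridisations 2 (0.41 against 0.39) and 3 (0.54 against 0.45). MRP8 and RSM22 were in neither class.

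The members varied among themselves most in hybridisation 1. The SD over the 68 genes was 0.65 there, 0.41 in hybridisation 2 and 0.34 in hybridisation 3, while over all tested genes it was 0.90, 0.65 and 0.67. Hybridisation 1 gave the lowest of the 3 values for 45 members (66.2%), where it did so for 48.4% of all tested genes, and hybridisation 3 the highest for 34 (50.0%, against 33.9%). As a description across genes, the Pearson correlation of the 68 ratios was 0.54 between hybridisations 1 and 2, 0.56 between 1 and 3 and 0.67 between 2 and 3. The order of the members was thus partly shared by the arrays, on which all members were read together.

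**Figure D2:**
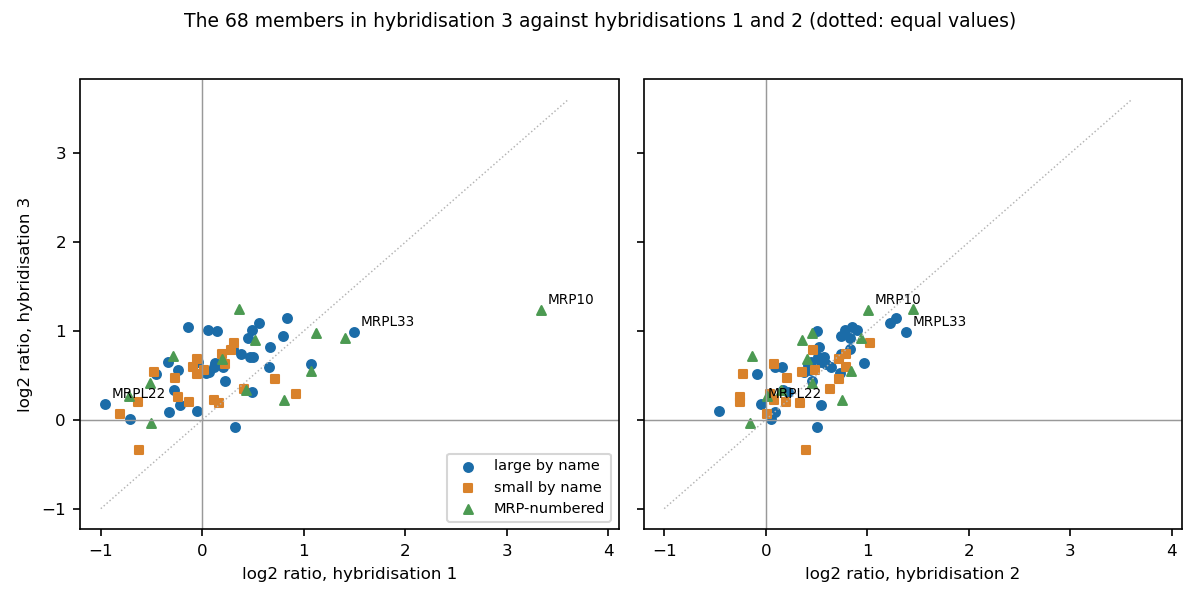
Log2 ratio of each of the 68 genes in hybridisation 3 (y axis) against hybridisation 1 (left, x axis) and hybridisation 2 (right, x axis), with classes by name as symbols. Most points in the left panel lie above the dotted line of equal values, since hybridisation 1 was the lowest for 45 genes, and MRP10 lies far to the right at 3.34.

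The number of members called depended on single arrays. Without hybridisation 1, 41 of 68 rose, beside 20.8% of all tested genes, and these included all 13. Without hybridisation 2, 5 rose (MRP10, MRPL33, MRP2, MRPL23 and MRP8), or 7.35% beside 6.97% of all tested genes, a share near the background. Without hybridisation 3, 0 rose by limma, beside 0.0187% of all tested genes, with a lowest adjusted p of 0.0761. At an unadjusted p under 0.05, 12 (17.6%) were higher in that setting, beside 10.7% of all tested genes. On the 2 arrays left, 1 of the 5349 genes was called higher. The median over the members' mean ratios stayed above 0 in each case, at 0.52, 0.38 and 0.34.

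Other ways of handling the same arrays changed the number of calls but not their direction. With the scans kept apart and hybridisation as a random block, 25 members rose, beside 15.0% of all tested genes. Against a minimum fold of 1.2, MRPL33, MRPL23 and MRP2 rose and MRP10 did not (adjusted p = 0.0526 by limma's treat), which was 4.41% of members beside 4.30% of all tested genes. With ID blocks centred, 12 rose (17.6%, beside 8.45% of all tested genes) and 8 of the 13 were among them: IMG2, MRP17, MRPL16, MRPL19 and MRPL39 did not pass, and IMG1, MRP49, MRPL38 and RSM18 did. In none of the 14 alternatives tried was a member called lower.

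**Figure D3:**
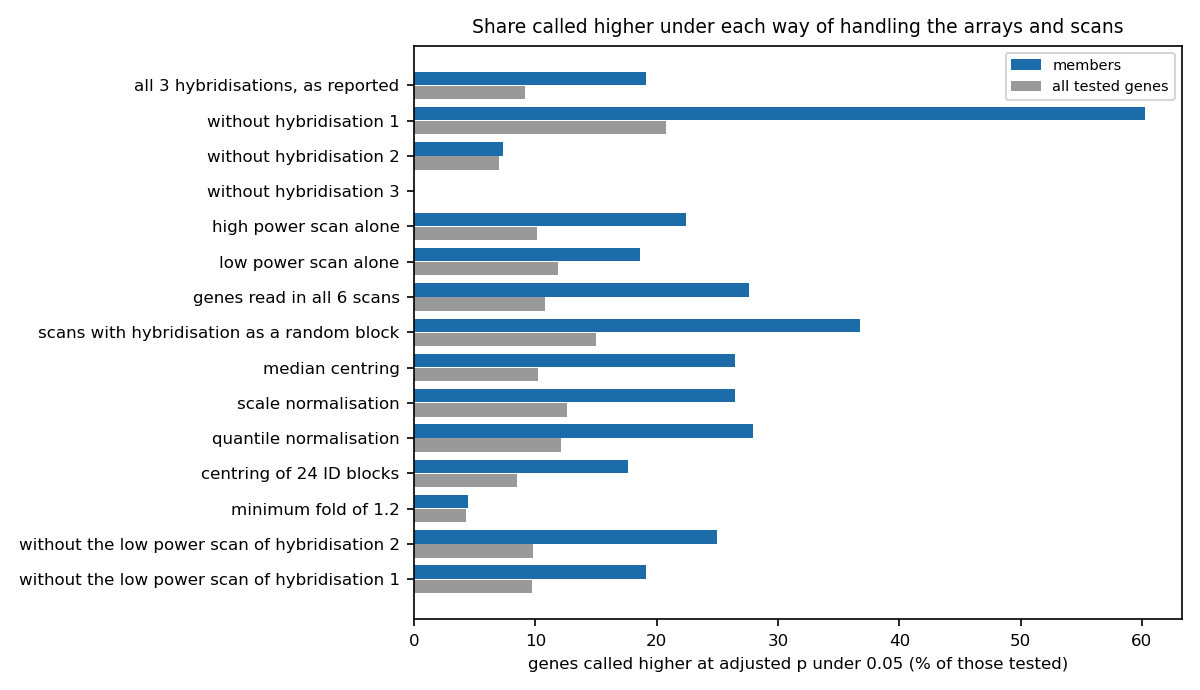
Share of genes called higher at an adjusted p under 0.05 (x axis, % of the genes tested) for the 68 members (blue) and all tested genes (grey), with all 3 hybridisations and under each alternative (y axis). The members' share ranges from 0% without hybridisation 3, where 0.0187% of all tested genes were called, to 60.3% without hybridisation 1. The 2 bars nearly coincide without hybridisation 3, without hybridisation 2 and with a minimum fold of 1.2.

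The name rule misses some proteins of the mitochondrial ribosome. Of 11 further genes listed as such, 3 rose (27.3%, beside 9.14% of all tested genes) and 0 fell (beside 11.9%). The list had a median of 0.52 ± 0.16. KGD4 had 0.89, 0.94 and 0.95 (adjusted p = 0.0170 by limma). Its product was first known as a mitochondrial ribosomal protein but is tied to the ketoglutarate dehydrogenase complex, so its place in this list is doubtful. RTC6, the counterpart of bacterial bL36, had 0.94, 0.98 and 0.70 (adjusted p = 0.0210 by limma), and PET123, of the small subunit, had 0.49, 0.91 and 0.91 (adjusted p = 0.0344 by limma). All 9 values lay above 0. The list was drawn up from general knowledge with results of the members known.

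Among genes that serve the mitochondrial ribosome, calls came from the synthetases and the translation factors. The lists are short, no difference between them was tested, and of all tested genes 9.14% rose and 11.9% fell. Of 13 mitochondrial aminoacyl-tRNA synthetases, which charge the transfer RNAs, 3 rose (23.1%) and 0 fell, with a median of 0.39 ± 0.17. These were MSF1 (1.22 ± 0.27), MSR1 (0.74 ± 0.22) and SLM5 (0.67 ± 0.14), for phenylalanine, arginine and asparagine. Of 21 translation and assembly factors, 3 rose (14.3%) and 0 fell, with a median of 0.24 ± 0.22. The 3 were MAM33 (0.78 ± 0.31), the ribosome recycling factor RRF1 (0.73 ± 0.36) and the elongation factor GUF1 (0.65 ± 0.06). The elongation factor TUF1 had -0.08, 1.18 and 1.24 and did not pass. Of 15 translational activators, which act on single mitochondrial messages, 0 passed in either direction by limma, with a median of 0.15 ± 0.13. At an unadjusted p under 0.05 there were 3 higher and 2 lower (33.3% in all, beside 38.6% of all tested genes). Of 10 genes of mitochondrial DNA maintenance and transcription, 0 passed by limma and 1 had an unadjusted p under 0.05, with a median of 0.01 ± 0.04.

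Nuclear genes of the respiratory chain and ATP synthase, many of whose products assemble with those made on mitochondrial ribosomes, had a median of 0.06 ± 0.19 over 37 genes. Of these, 3 rose, namely the cytochrome c isoform CYC7 (1.68 ± 0.72) and the ATP synthase subunits ATP18 (1.06 ± 0.12) and ATP15 (1.05 ± 0.32), and 1 fell, the cytochrome c oxidase subunit COX4 (-0.88 ± 0.39). That is 8.11% higher and 2.70% lower, beside 9.14% and 11.9% of all tested genes, so the share higher is near the background. The members' median of 0.41 was the higher one in each hybridisation, with 0.18, 0.46 and 0.59 against -0.08, -0.0044 and 0.28. The difference of these medians was not tested, since genes of a list are not replicates.

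The medians of the mitochondrial and the cytosolic ribosomal protein genes lay on opposite sides of 0 in each hybridisation. Single genes did not all follow: 11 of 68 members had a mean ratio at or below 0, and 18 of 122 cytosolic genes had one above it. Among the members 13 rose (19.1%) and 0 fell, while among 122 cytosolic ribosomal protein genes 0 rose and 36 (29.5%) fell. Of all tested genes 9.14% rose and 11.9% fell. The members' medians of 0.18, 0.46 and 0.59 stood against -0.41, -0.62 and -0.57. In all 3 hybridisations 42 of 68 members lay above 0, and 1 of 122 cytosolic genes did, beside 27.5% of all tested genes. The median member stood at percentile 77.5 of all tested genes and the median cytosolic gene at percentile 20.2. Cytosolic pairs of near-identical genes cannot be separated on such arrays, and the lists were compared by counts and medians alone.

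**Figure D4:**
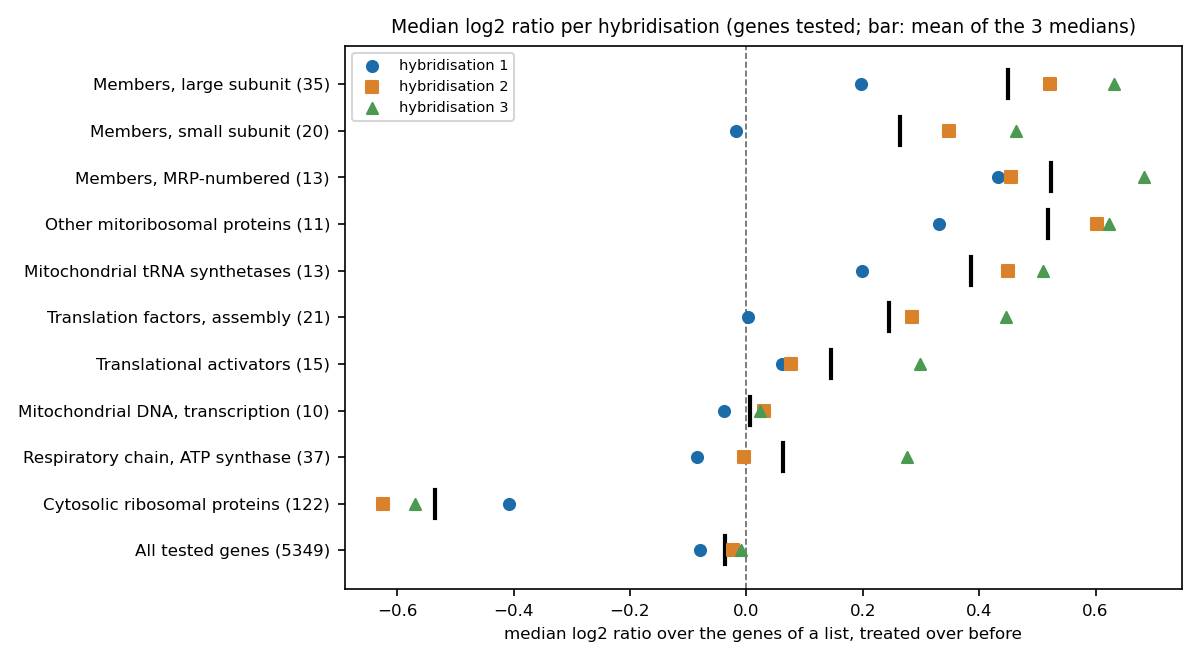
Median log2 ratio of treated over untreated cells (x axis) over the genes of each list (y axis, number tested in parentheses), with a point for each hybridisation and a bar at their mean. Member classes lie at 0.26 to 0.52 on average, cytosolic ribosomal proteins at -0.53 and all tested genes at -0.04.

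The members formed 136 pairs with an adjacent protein-coding gene in the R64 gene order. The neighbour was tested in 120 of them, and was higher in 9 (7.50%) and lower in 18 (15.0%) by limma, shares near the 9.14% and 11.9% of all tested genes. The median mean ratio was -0.07 for 33 neighbours transcribed head to head with a member, -0.03 for 49 on the same strand and -0.29 for 38 tail to tail, beside 0.42 for the members themselves. MRPL19 overlaps the open reading frame YNL184C on the same strand, which was not among the tested genes, so signal of the pair could not be separated. MRP4 and MRPL51 overlap YHL005C and YPR099C head to head, and these frames were not tested either.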

How the data were processed

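The deposited values were log2 ratios of Cy5 over Cy3 that the authors had put through LOWESS normalisation on unflagged spots (flag 0), per the labels; base and direction were not stated and were taken from convention and dye labels. How spots were read and background was removed is not given in the sources used here. Without spot intensities dim spots could not be left out, and the number of arrays limits the precision.

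Values were averaged first over the 2 scans of each hybridisation (a lone scan was used as it was) and then over the features of a gene. Gene names came from the platform annotation (5513 of 6912 features) and were brought up to date from RefSeq genes of R64 (5508 matched). The mean of the 3 hybridisations was set against 0 in limma 3.58.1 under R 4.3.3 (lmFit, eBayes, two-sided, Benjamini-Hochberg over 5349 genes, threshold 0.05), after a test on simulated data. Members and lists were chosen with earlier results of these data known. Named were all called members, the 10 lowest and a set of 15 landmarks, and in other lists up to 4 called genes; further members were named after their values were seen. The landmark YML6 is named by 0 features of the platform annotation and was not analysed here. Alternatives left out each hybridisation, a scan or genes without all 6 scans, changed centring or scaling, took hybridisation as a random block, centred 24 ID blocks or set a minimum fold of 1.2.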

Additional observations from a re-analysis of the deposited data

How the results depend on the processing

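The number of members called higher was 13 as reported and ranged from 0 to 41 when each hybridisation was left out in turn. It was 25 with hybridisation as a random block and 3 with a minimum fold of 1.2, and within 1.5 times of 13 in the other alternatives, while the number called lower was 0 in each. The medians of both subunits moved by less than their SD over hybridisations under every alternative run for them. The difference of the large-subunit and small-subunit medians was 0.19, and it was 0.21 with the high power scan alone, 0.15 without the low power scan of hybridisation 1, 0.12 with MRP-numbered genes added to their known subunit and 0.067 with ID blocks centred; the cause was not tested. Omission of a low power scan of hybridisation 1 or 2 was added after seeing the data. Of the comparisons of single named members with an alternative, 364 kept their side of the threshold, 41 lost a call and 5 gained one, and 0 changed sign with a call. With 3 arrays and no dye exchange, a dye effect, elapsed time and the solvent cannot be told apart. The planned search of promoters for motifs was not run, since no sequences were used here.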
